A study of Homo sapiens with 9 samples.

Results

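The genes described here build the centrosome and the primary cilium. They were taken from the deposited table of doxorubicin against control by their gene names, namely the numbered CEP, IFT, BBS, HAUS, NEK and TCTN genes, the genes whose names begin with DYNC2, ODF2 or RPGR, and CCP110, PCNT, PCM1, ASPM, STIL, SASS6, PLK4, OFD1, CDK5RAP2, CNTRL, CNTROB, NIN, NINL, ALMS1, WDR19, WDR35 and CPLANE1. The names use no measured value, but the members were chosen with earlier results of these data known. The table they were taken from holds genes that its authors marked as changed. Of the 6499 genes of the table, 54 have such a name. The names fit 113 protein-coding genes of RefSeq, and the 59 that are not in the table, such as CEP290, IFT88 and OFD1, were not analysed here.

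RNA came from WI-38, a long-used line of diploid fibroblasts from human lung, at population doubling 30. The control group received DMSO, the carrier, in place of doxorubicin. The doxorubicin group received 1 μM doxorubicin, an anthracycline and topoisomerase II poison that breaks DNA, for 12 h. Both groups were then kept for 48 h in medium with DMSO, and each had 3 libraries. The other 3 libraries, from cells given doxorubicin and then oridonin, were not analysed here.

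The table lists only genes that its authors marked as changed on the same 6 libraries. The methods of the study state a fold change over 1.2 and p under 0.05. On TPM not every listed gene reaches that fold, such as CEP41 at 101% of the control mean. No test on the listed genes is independent of the authors' choice, and a count of members is read below against the same count over all listed genes. The table does not name its unit, and the values were read as TPM, a transcript abundance corrected for gene length and library size, which keeps no read depth. Across the genes tested, Pearson's r on the log2(TPM + 1) scale lay between 0.992 and 0.995 for library pairs within a group and between 0.935 and 0.958 for pairs across groups. The fibroblast genes COL1A1, COL1A2, COL3A1, PDGFRB and FN1 summed to 9409 to 11485 TPM over the 6 libraries. On TPM, COL3A1 (log2 fold change -1.48), PDGFRB (-0.58), COL1A1 (-0.55) and COL1A2 (-0.38) were lower after doxorubicin and FN1 (0.45) was higher. No endothelial marker of the 3 searched was listed, nor were the fibroblast genes VIM, THY1, LUM and DCN. Absence from a table of changed genes does not show that a gene was not expressed. The leukocyte marker PTPRC did not exceed 0.62 TPM. EPCAM and CDH1 were not in the table, while the keratin genes KRT18 (26.1 ± 0.642 to 40.2 ± 1.84 TPM, SD, n = 3) and KRT19 (107 ± 6.47 to 246 ± 10.4 TPM, SD, n = 3) were higher after doxorubicin, and the part of such a shift in the values of the members was not tested. In bulk RNA, fewer cells of a kind and less RNA per cell cannot be told apart.

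The centrosome is a pair of centrioles in a pericentriolar matrix that nucleates microtubules. Its centrioles duplicate in each cell cycle under the kinase PLK4, and it forms the poles of the mitotic spindle. In cells that leave the cycle, fibroblasts included, the older centriole can template a primary cilium, a sensory antenna that carries Hedgehog signalling and is built and serviced by intraflagellar transport (IFT). Transcripts of several duplication and spindle pole genes, CEP55, NEK2, ASPM and PLK4 among them, rise towards G2 and M phase in dividing cells.

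On TPM, 25 of the 31 genes tested of the centrosome and NEK lists were lower after doxorubicin, against 15 of 31 after quantile normalization and 15 of 31 after median centring, and the deepest falls were those of the genes that act in duplication, spindle poles and abscission. IFT and dynein-2 genes were mixed, and 3 of them rose. Of the 54 genes, 49 averaged 1 TPM or more and were tested. Of these, 30 (61.2%) were lower and 3 (6.12%) were higher by limma (Benjamini-Hochberg adjusted p under 0.05 over the 5721 genes tested, fold change over 1.2), and 16 were not called. Over all genes tested, 48.5% were lower and 22.7% were higher. The libraries of the 2 groups did not overlap in 32 members on the lower side and in 4 on the higher side, where 48.4% and 32.3% of all genes tested did so. The median log2 fold change on the log2(TPM + 1) scale was -0.41 over the members tested and -0.28 over all genes tested. This scale understates the change of a gene with few TPM. The members together held 486 to 514 TPM in a control library and 420 to 459 TPM in a doxorubicin library. The labels do not say that the 3 libraries of a group came from separate cultures, so the p-values measure only the spread between these libraries. For a single gene compared by exact permutation, two-sided, the smallest p this design allows is 0.1.

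The direction of the smaller changes depended on the scale. Because the median of all genes tested lay at -0.28 on the TPM values, the libraries were also quantile normalized and, separately, centred on their medians, which brought that median to -0.02 on each. Both steps used only the listed genes, so a median near 0 follows from them and does not show which scale is right. The listed genes summed to 543230 to 548180 TPM in a control library and to 586120 to 599670 TPM in a doxorubicin library. A call that holds on all 3 scales is thus not checked against unchanged genes. Calls among all genes were then 53.0% and 59.9% higher, against 31.9% on TPM. Among the members, 16 were lower and 9 higher after quantile normalization, and 17 were lower and 9 higher after median centring. The lower members made up 32.7% and 34.7% of those tested, near the 29.2% and 30.3% of all genes, and the higher members 18.4% on each, against 32.9% and 45.2% of all genes. On all 3 scales, 15 members were lower (PLK4, STIL, CEP85, CEP57, CCP110, CEP55, ASPM, CNTRL, CEP170, HAUS2, HAUS6, HAUS8, NEK2, NEK7 and CPLANE1) and 3 were higher (IFT20, IFT27 and IFT43). Of these 15, only CPLANE1 belongs to the ciliary lists (IFT, BBSome, transition zone), and all 3 higher members do.

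**Figure D1:**
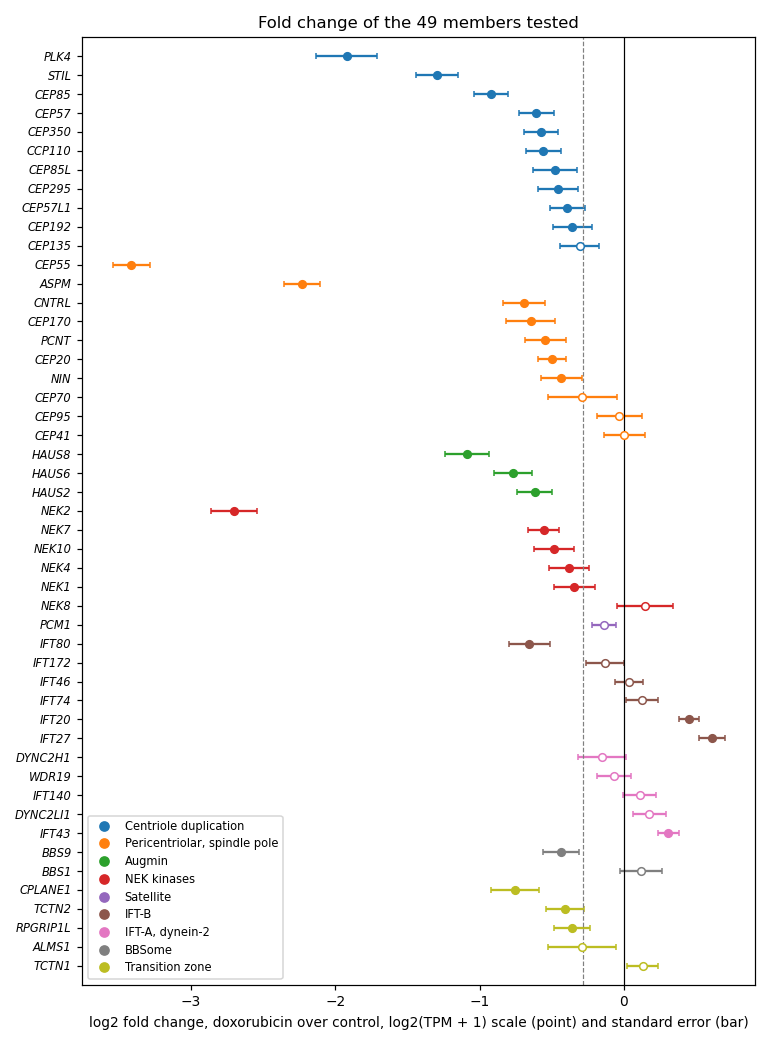
Log2 fold change of doxorubicin over control on the log2(TPM + 1) scale (x axis) for the 49 members tested (y axis), grouped and coloured by role. Points are limma estimates, bars are standard errors, filled points are called and open points are not, and the dashed line marks the median of all genes tested, -0.28. CEP55, NEK2, ASPM, PLK4, STIL and HAUS8 lie below -1, and the called members above 0 are IFT27, IFT20 and IFT43.

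The 6 members that fell by more than 1 on the log2 scale were CEP55, NEK2, ASPM, PLK4, STIL and HAUS8. Over all genes tested, 364 did so. The filter of 1 TPM used the mean of all 6 libraries, and CEP55, NEK2, ASPM, PLK4 and STIL passed it only through their control libraries. Their doxorubicin means were 0.28, 0.067, 0.13, 0.50 and 0.45 TPM, in that order. CNTRL, CEP85L and CEP135, with smaller changes, also passed it only so, at doxorubicin means of 0.81, 0.96 and 0.79 TPM. The p-values and ranks of these genes therefore describe the falls and are no separate support for them. CEP55 (ENSG00000138180, chromosome 10, 93496632 to 93529092, GRCh38), the scaffold that recruits the abscission machinery to the midbody, stood at 11.67, 12.91 and 13.41 TPM in the control libraries and at 0.20, 0.22 and 0.43 TPM in the doxorubicin libraries. Every doxorubicin library was thus under 1 TPM and every control library above 11 TPM, and the doxorubicin mean was 2.24% of the control mean. Its log2 fold change was -3.41 (SE 0.13, limma adjusted p = 1.68e-08), the 23rd deepest fall of the 5721 genes tested.

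NEK2 (ENSG00000117650, chromosome 1, 211658657 to 211675630), the kinase that loosens the link between the centrosomes at the start of mitosis, was measured at 5.25, 7.79 and 5.08 TPM in control cells and at 0.10 and 0.10 TPM in doxorubicin replicates 1 and 2, and was listed at 0 in replicate 3. Every control library lay above 5 TPM and every doxorubicin library at or under 0.10 TPM (log2 fold change -2.70, SE 0.16, limma adjusted p = 4.23e-07). ASPM (ENSG00000066279, chromosome 1, 197084128 to 197146694), which focuses microtubules at the spindle poles, had 4.29, 4.63 and 4.0 TPM in control cells and 0.11, 0.19 and 0.09 TPM after doxorubicin. The doxorubicin mean was 3.02% of the control mean, with a log2 fold change of -2.23 (SE 0.12, limma adjusted p = 2.65e-07).

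PLK4 (ENSG00000142731, chromosome 4, 127880861 to 127899195), the kinase that starts the assembly of a new centriole, was at 3.41, 6.34 and 4.42 TPM in control cells and at 0.31, 0.89 and 0.30 TPM after doxorubicin. The highest doxorubicin library lay well under the lowest control library (log2 fold change -1.92, SE 0.21, limma adjusted p = 4.29e-05). STIL (ENSG00000123473, chromosome 1, 47250139 to 47314147), the partner of PLK4 at the site of the new centriole, had 2.53, 3.05 and 2.15 TPM in control cells and 0.45, 0.58 and 0.33 TPM after doxorubicin (log2 fold change -1.30, SE 0.14, limma adjusted p = 4.06e-05). SASS6, which forms the cartwheel of that new centriole, was too low to be tested and stood at 0.96, 0.99 and 0.69 TPM in control cells against 0.19, 0.22 and 0.50 TPM after doxorubicin. The levels of PLK4, STIL and SASS6 were thus each separated between the groups.

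**Figure D2:**
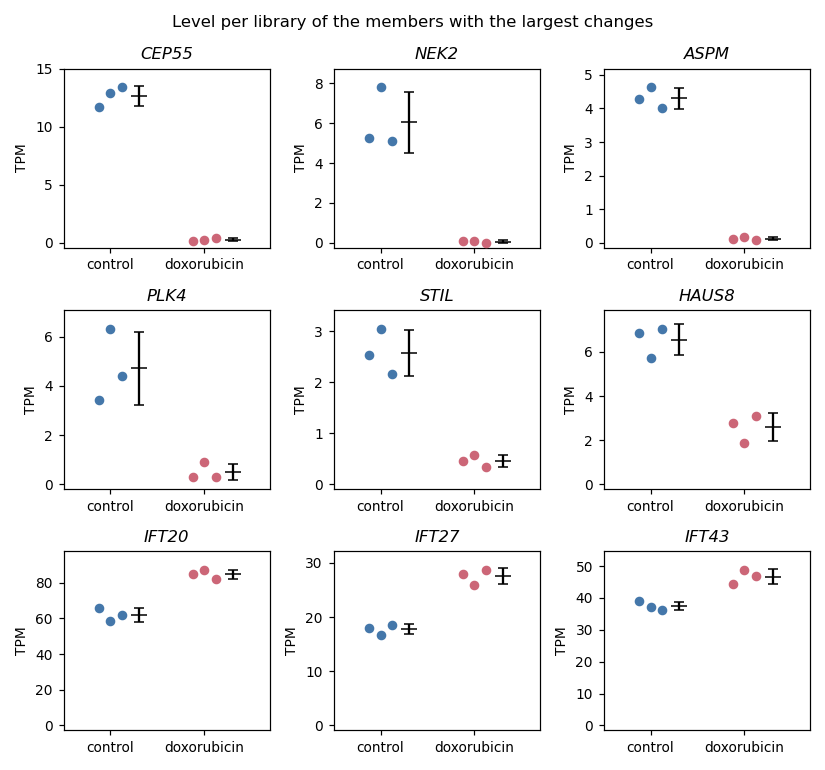
TPM per library (y axis, linear) of the 6 members with the deepest falls and the 3 that rose, with control libraries in blue and doxorubicin libraries in red. The black marks beside the points are the mean and SD of 3 libraries. The groups do not overlap in any of the 9 panels, and CEP55, NEK2, ASPM, PLK4 and STIL stay under 1 TPM in every doxorubicin library.

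The sequences before the start sites of members with the deepest falls are shown with that of IFT27, the gene with the largest rise. The sequence of the dynein subunit gene DYNC2LI1, which was not called on TPM, is shown too, so that the letters can be compared. Those of IFT20 and IFT43, which also rose, are not shown. RefSeq promoters (250 bases before to 50 after the start, GRCh38.p14) were found for 50 of the 54 members. Each line gives the 130 bases before the start, 5′ to 3′ on the strand of the gene. Capitals mark exact matches on either strand to TTTGAA (the core of the cell cycle genes homology region, CHR), to TTTGGCGC, TTTCCCGC, TTTCGCGC or TTTGCCGC (E2F), to CCAAT (the box bound by NF-Y), and to GTTGCC or GTTACC (letters of the X-box bound by RFX factors). In IFT27 the X-box letters and CCAAT overlap by a base.
CEP55, chr10:93496482-93496611, plus strand: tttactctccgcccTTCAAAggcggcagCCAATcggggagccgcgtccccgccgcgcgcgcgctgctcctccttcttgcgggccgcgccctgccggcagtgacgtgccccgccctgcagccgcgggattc
ASPM, chr1:197146670-197146799, minus strand: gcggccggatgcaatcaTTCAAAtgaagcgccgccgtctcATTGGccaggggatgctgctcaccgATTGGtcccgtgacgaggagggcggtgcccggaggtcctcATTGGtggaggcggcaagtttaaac
HAUS8, chr19:17075453-17075582, minus strand: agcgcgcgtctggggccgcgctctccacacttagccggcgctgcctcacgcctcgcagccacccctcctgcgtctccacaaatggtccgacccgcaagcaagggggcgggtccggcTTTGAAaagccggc
STIL, chr1:47314148-47314277, minus strand: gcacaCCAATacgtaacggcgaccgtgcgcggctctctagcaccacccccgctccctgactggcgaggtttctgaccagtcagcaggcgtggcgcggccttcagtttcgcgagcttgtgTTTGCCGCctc
NEK2, chr1:211675622-211675751, minus strand: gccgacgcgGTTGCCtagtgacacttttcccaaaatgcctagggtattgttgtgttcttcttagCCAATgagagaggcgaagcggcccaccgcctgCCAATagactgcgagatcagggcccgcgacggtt
IFT27, chr22:36776120-36776249, minus strand: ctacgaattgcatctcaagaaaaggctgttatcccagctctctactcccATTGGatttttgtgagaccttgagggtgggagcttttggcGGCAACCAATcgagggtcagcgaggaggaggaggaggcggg
DYNC2LI1, chr2:43773909-43774038, plus strand: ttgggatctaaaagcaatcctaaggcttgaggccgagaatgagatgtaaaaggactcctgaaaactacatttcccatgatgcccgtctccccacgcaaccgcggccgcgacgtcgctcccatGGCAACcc

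TTTGAA was present in the promoters of 4 of the 6 members with the deepest falls (CEP55, ASPM and HAUS8 before the start, PLK4 38 to 43 bases after it), in 7 of the other 44 members (15.9%), in 10.6% of the 4850 listed genes with a promoter and in 15.4% of the 27305 RefSeq promoters. In CEP55 and ASPM it lay 116 and 113 bases before the start with a CCAAT box downstream of it. CEP55 had a further TTTGAA match across the start (positions -3 to 2), and ASPM also had a CCAAT box upstream of its TTTGAA (-134 to -130). An E2F motif was present in 2 of the 6 (STIL and HAUS8), in 6.82% of the other members, in 5.71% of these listed genes and in 3.33% of all promoters. The X-box letters were present in 9 of the 16 members of the ciliary lists (56.2%), in 12 of the other 34 members (35.3%), in 875 of the 4850 listed genes and in 17.7% of all promoters. Among the genes that rose, IFT27 had the X-box letters and IFT20 and IFT43 did not, while some lower members, NEK2 among them, had them. These matches describe the letters of the sequences, and no binding was measured.

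Centriole duplication genes were lower as a group. Of the 14 listed, 11 were tested, and 10 of these were called lower and none higher (median log2 fold change -0.56). After quantile normalization 5 of the 11 were lower and after median centring 6, with none higher on either. Over all genes tested, 48.5% were lower on TPM, 29.2% after quantile normalization and 30.3% after median centring. Their summed level was 52.3 to 58.0 TPM in the control libraries and 28.5 to 32.9 TPM in the doxorubicin libraries. CEP85, a partner of STIL, had 5.00, 4.58 and 4.70 TPM in control cells and 2.15, 1.84 and 2.15 TPM after doxorubicin (log2 fold change -0.92, SE 0.12, limma adjusted p = 0.000107). CCP110, which caps the distal end of centrioles and is removed when a cilium forms, had 2.50, 2.52 and 2.41 TPM against 1.30, 1.26 and 1.53 TPM (log2 fold change -0.56, SE 0.12, limma adjusted p = 0.00227). The spread among libraries of a group was narrow in both genes relative to the gap between the groups.

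The other lower members of the list were CEP57, CEP350, CEP85L, CEP295, CEP57L1 and CEP192, with log2 fold changes from -0.61 to -0.36. The calls of 3 of them rested on single libraries. CEP192, which recruits PLK4, was lost without control replicate 2 or 3 or doxorubicin replicate 1 or 2, with log2 fold changes of -0.44 to -0.28 over the 6 fits that each left out a library, and its sign turned after quantile normalization (0.02). CEP85L was lost without control replicate 3 or doxorubicin replicate 1 or 2 (-0.60 to -0.38), and CEP57L1 without control replicate 3 (-0.45 to -0.33). CEP135, a component of the cartwheel, was not called (log2 fold change -0.31, limma adjusted p = 0.0570), although its libraries did not overlap. CEP152 and CEP97 were too low to be tested. CEP152, the scaffold that brings PLK4 to the parent centriole, stood at 0.97, 1.15 and 1.2 TPM in control cells and 0.45, 0.28 and 0.45 TPM after doxorubicin. CEP97, the partner of CCP110, stood at 0.94, 1.27 and 0.84 TPM against 0.55, 0.45 and 0.68 TPM.

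Of the 11 listed genes of the pericentriolar matrix, the older centriole and the spindle pole, 10 were tested and 7 were lower with none higher (median log2 fold change -0.52). On the quantile normalized scale 5 were lower and 1, CEP41, was higher, and 4 were lower after median centring. The share of all genes called lower was 48.5% on TPM, 29.2% after quantile normalization and 30.3% after median centring. CEP170, a marker of the appendages of the older centriole with the highest mean TPM of this list, had 28.15, 30.46 and 23.20 TPM in control cells and 16.79, 13.19 and 21.91 TPM after doxorubicin (log2 fold change -0.65, SE 0.17, limma adjusted p = 0.00649). Doxorubicin replicate 3 lay close to the lowest control library, and without it the fold change was -0.82. CNTRL, another protein of the older centriole, had 1.85, 2.47 and 1.53 TPM against 0.83, 0.78 and 0.83 TPM (log2 fold change -0.69, SE 0.15, limma adjusted p = 0.00194). It passed the filter on low values only through its control libraries, so this p is no separate support for the fall. PCNT, the main scaffold of the matrix, had 10.48, 8.44 and 11.45 TPM against 6.07, 6.06 and 7.70 TPM (log2 fold change -0.55, SE 0.14, limma adjusted p = 0.00576), and it was not called after quantile normalization (-0.21) or median centring (-0.29).

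CEP20 was lower on TPM (log2 fold change -0.50). NIN, which anchors microtubules at the appendages, was also lower on TPM (-0.43), a call that was lost without control replicate 2 or doxorubicin replicate 1 or 2 (-0.56 to -0.33 over the 6 fits). CEP70, CEP95 and CEP41 were not called. CEP70 had 3.84, 4.11 and 8.44 TPM after doxorubicin, so that 1 library decided its value, and without doxorubicin replicate 3 it was called lower at -0.60. CEP128, at 1.16, 1.34 and 1.19 TPM in control cells and 0.55, 0.35 and 0.28 TPM after doxorubicin, was too low to be tested.

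All 3 listed subunits of augmin, the complex that branches new microtubules off those of the spindle, were lower on each of the 3 scales. Of all genes tested, 48.5% were lower on TPM, 29.2% after quantile normalization and 30.3% after median centring. HAUS8, the subunit that binds the parent microtubule, had 6.86, 5.74 and 7.06 TPM in control cells and 2.79, 1.89 and 3.08 TPM after doxorubicin (log2 fold change -1.09, SE 0.15, limma adjusted p = 0.000192). HAUS6, which recruits gamma-tubulin through NEDD1, had 4.75, 5.32 and 4.44 TPM against 2.43, 2.10 and 2.76 TPM (log2 fold change -0.77, SE 0.13, limma adjusted p = 0.000529). HAUS2 had 9.45, 9.33 and 10.43 TPM against 6.56, 5.22 and 6.26 TPM (log2 fold change -0.62, SE 0.12, limma adjusted p = 0.00126). The groups were separate in all 3 subunits, and the other 5 subunits of the complex were not analysed here.

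Besides NEK2, the NEK kinases changed modestly. Of the 6 tested, 5 were lower on TPM, and NEK2 and NEK7 alone were lower on all 3 scales. On TPM 48.5% of all genes tested were lower, against 29.2% after quantile normalization and 30.3% after median centring. NEK7, a kinase of spindle assembly that is also required for activation of the NLRP3 inflammasome, had 29.06, 34.64 and 27.51 TPM in control cells and 20.15, 18.67 and 22.15 TPM after doxorubicin (log2 fold change -0.56, SE 0.11, limma adjusted p = 0.00121). It was the most abundant NEK gene of the table in every library. NEK10 fell by 0.48 on the log2 scale (SE 0.14, limma adjusted p = 0.0102). NEK4 (-0.38) and NEK1 (-0.35), the latter linked to cilia and to the DNA damage response, passed on TPM but turned to 0.00 and 0.02 after quantile normalization. Without a single library, NEK4 ranged from -0.47 to -0.28 and was lost without control replicate 2 or doxorubicin replicate 1 or 2, and NEK1 ranged from -0.44 to -0.22 and was called only without doxorubicin replicate 1.

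NEK8, a kinase of the proximal cilium, had 0.95, 2.22 and 0.99 TPM in control cells and 1.54, 1.39 and 1.78 TPM after doxorubicin. Control replicate 2 lay above every doxorubicin library, the gene was not called, and without that library it was called higher at 0.38. NEK5 was near the floor of the table, at 0.00, 0.02 and 0.01 TPM against 0.20, 0.12 and 0.14 TPM, and was not tested. PCM1, the scaffold of centriolar satellites, was at 29.23, 27.04 and 27.93 TPM in control cells and 25.45, 24.69 and 26.04 TPM after doxorubicin, and was not called (log2 fold change -0.14, SE 0.08, limma adjusted p = 0.132), with the opposite sign after median centring (0.12).

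**Figure D3:**
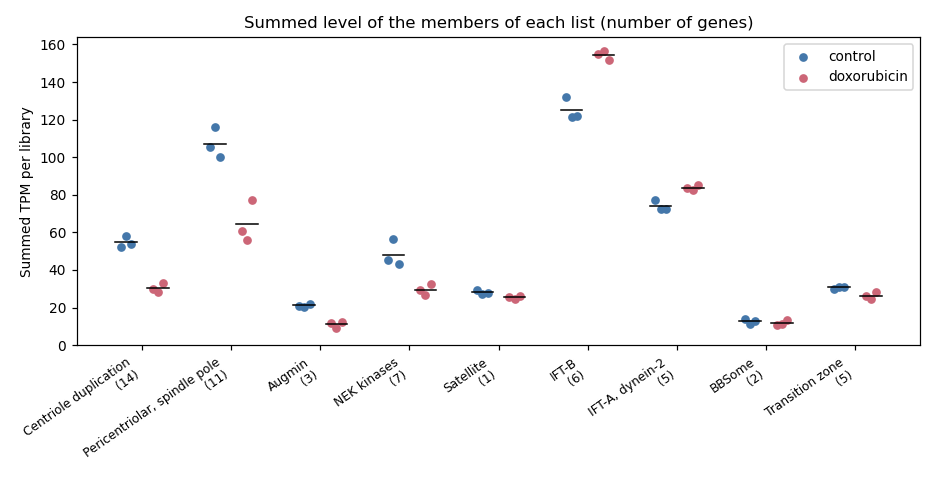
Summed TPM per library (y axis, linear) of the listed members of each role (x axis, number of genes in parentheses), with control libraries in blue, doxorubicin libraries in red and the mean of 3 libraries as a line. The centriole duplication, pericentriolar, augmin, NEK, satellite and transition zone sums are lower in every doxorubicin library than in any control library. The BBSome sums overlap between the groups. The IFT-B and IFT-A with dynein-2 sums are higher in every doxorubicin library. IFT20, IFT27 and IFT43 carry the rise of these sums, and the other genes of these lists were lower or not called on TPM.

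Of the 11 genes of intraflagellar transport and dynein-2 tested, 3 were higher and 1 was lower on TPM, where 22.7% and 48.5% of all genes tested were so. IFT-B, which carries cargo towards the tip of the cilium, had 6 listed members, of which 2 were higher, 1 was lower and 3 were not called (median log2 fold change 0.08). IFT27, the small GTPase of IFT-B that helps the BBSome leave the cilium, had 17.90, 16.74 and 18.56 TPM in control cells and 28.01, 25.93 and 28.73 TPM after doxorubicin (log2 fold change 0.61, SE 0.09, limma adjusted p = 0.000243). IFT20, the subunit that also works at the Golgi in sorting membrane proteins to the cilium, had 65.76, 58.40 and 61.71 TPM against 84.99, 87.32 and 82.21 TPM (log2 fold change 0.45, SE 0.07, limma adjusted p = 0.000321). IFT20 had the highest TPM of all 54 genes in every library. The libraries of the groups were separate for IFT27 and IFT20, and the calls held on the 3 scales and without any 1 of the 6 libraries.

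IFT80, another subunit of IFT-B, was lower, at 8.14, 10.09 and 7.02 TPM in control cells and 4.41, 5.03 and 5.35 TPM after doxorubicin (log2 fold change -0.66, SE 0.14, limma adjusted p = 0.00223), and it was not called after quantile normalization (-0.29). Its exons share 1953 bp with another protein-coding locus on the same strand and 607 bp with SMC4, a condensin gene, on the opposite strand, so its reads are uncertain. IFT74 was not called on TPM (log2 fold change 0.13) although its libraries did not overlap, and it was higher on the other 2 scales (0.46 and 0.39). IFT46 (0.04) and IFT172 (-0.13) overlapped between the groups. IFT46 was higher after median centring only (0.29), and the sign of IFT172 turned on both other scales (0.17 and 0.13).

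IFT-A, which carries cargo back and admits membrane proteins, and its motor dynein-2 had 5 listed members, with 1 higher and none lower. IFT43, a small subunit of IFT-A, had 38.96, 37.29 and 36.28 TPM in control cells and 44.39, 48.82 and 46.93 TPM after doxorubicin (log2 fold change 0.31, SE 0.07, limma adjusted p = 0.00402). The lowest doxorubicin library lay above the highest control library, and the call held on all 3 scales. DYNC2LI1, the light intermediate chain of dynein-2, was at 10.4 ± 1.15 TPM in control cells and 11.9 ± 0.677 TPM after doxorubicin (SD, n = 3), and IFT140 at 6.34 ± 0.236 and 6.93 ± 0.607 TPM (SD, n = 3). Neither was called on TPM (log2 fold changes 0.18 and 0.11), and both were higher after quantile normalization (0.44 and 0.46) and median centring (0.44 and 0.37). DYNC2H1, the motor subunit (-0.15), and WDR19, an IFT-A core subunit (-0.07), were not called on any scale, and their signs turned after quantile normalization (0.18 and 0.21) and median centring (0.11 and 0.19).

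A ratio within a library does not change when all values of that library are multiplied by a constant, whereas quantile normalization can change it. The summed TPM of the 11 listed IFT and dynein-2 genes was 1.33, 1.11 and 1.26 times that of the 25 listed centriole duplication and pericentriolar genes in the control libraries and 2.64, 2.83 and 2.15 times in the doxorubicin libraries. Every doxorubicin library thus lay above every control library. The ratio is given as a description, since the lists were set side by side with their directions known. It shows unequal change of the summed levels and not which of them moved. A sum weights genes by their level, and IFT20, IFT27 and IFT43, which rose, had the highest mean TPM of these 11 genes. For single genes, chosen after their values were seen, the ratio of IFT27 to CEP170 was 0.636, 0.550 and 0.800 in control cells and 1.67, 1.97 and 1.31 after doxorubicin.

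**Figure D4:**
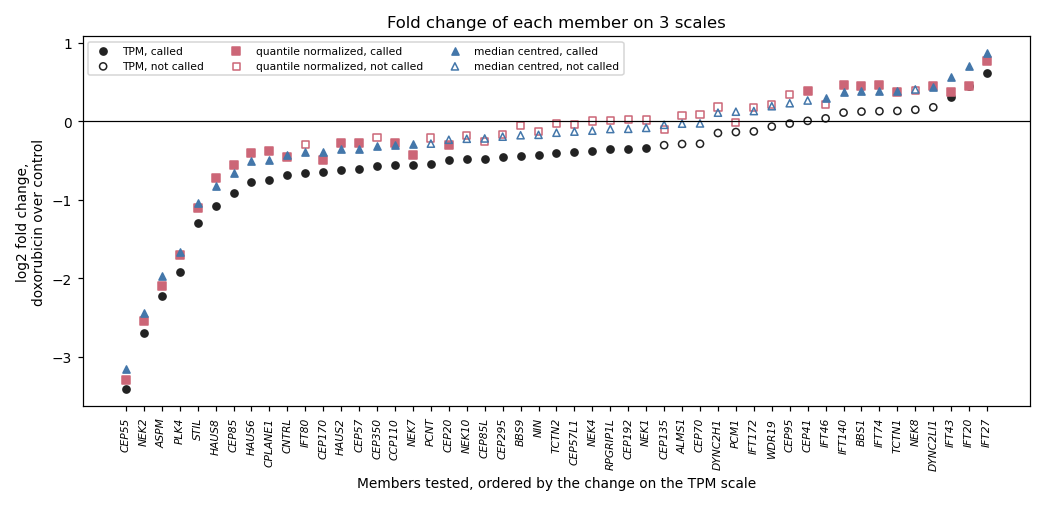
Log2 fold change of doxorubicin over control (y axis) of the 49 members tested, ordered by the change on the TPM scale (x axis), on TPM (circles), after quantile normalization (squares) and after median centring (triangles). Filled symbols are called and open symbols are not. The 15 members lower on all 3 scales include the 6 deepest falls, and IFT43, IFT20 and IFT27 are higher on all 3.

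Of the BBSome, the coat that moves membrane proteins in and out of the cilium, only BBS9 and BBS1 were listed. BBS9 was lower on TPM, at 4.80 ± 0.464 TPM in control cells and 3.28 ± 0.297 TPM after doxorubicin (SD, n = 3, log2 fold change -0.44, SE 0.12, limma adjusted p = 0.00888), and was not called after quantile normalization (-0.06) or median centring (-0.18). BBS1 was at 7.89 ± 1.25 and 8.66 ± 1.31 TPM (SD, n = 3) and was not called on TPM (0.12), but was higher on the other 2 scales (0.44 and 0.38). Its exons share 3311 bp with another protein-coding locus on the same strand, so its reads are uncertain.

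Of the 5 listed genes of the transition zone and ciliogenesis, 3 were lower on TPM, where 48.5% of all genes tested were lower. After quantile normalization and after median centring 1 was lower and 1 higher, where 29.2% and 30.3% of all genes were lower. CPLANE1, which helps recruit IFT-A to the base of the cilium, had 4.35, 6.69 and 4.94 TPM in control cells and 2.56, 2.28 and 3.38 TPM after doxorubicin (log2 fold change -0.75, SE 0.17, limma adjusted p = 0.00249), and was lower on all 3 scales. TCTN2 (-0.41) and RPGRIP1L (-0.36), components of the transition zone, were not called on the other 2 scales, where RPGRIP1L stood at 0.01 after quantile normalization and -0.10 after median centring. The call of TCTN2 was lost without control replicate 3 or doxorubicin replicate 1 or 2 (-0.51 to -0.31 over the 6 fits), and that of RPGRIP1L without control replicate 1 or 2 or doxorubicin replicate 1 (-0.43 to -0.30). TCTN1 was at 13.6 ± 0.584 and 15.0 ± 1.67 TPM (SD, n = 3), not called on TPM (0.13) and higher on the other 2 scales (0.37 and 0.39). ALMS1, a protein of the centrosome and the base of the cilium, had 3.30, 2.91 and 5.18 TPM in control cells and 3.89, 3.28 and 1.71 TPM after doxorubicin. Its groups overlapped, it was not called (-0.29), and its sign turned after quantile normalization (0.07).

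The genes of the same structures that the names above do not take were compared in the same way, and on TPM the share called lower over all genes was 48.5%, against 29.2% after quantile normalization and 30.3% after median centring. Of 20 other centrosome genes tested (21 of 40 were listed), 16 were lower and none higher on TPM (median log2 fold change -0.57), and 10 were lower and 1 higher after quantile normalization and 11 lower and 4 higher after median centring. The deepest falls were those of the mitotic kinase PLK1 (-3.81), of the spindle assembly factor TPX2 (-3.32) and of TACC3 (-2.88), which crosslinks spindle microtubules. Of 19 other ciliary genes tested (21 of 50 were listed), 11 were lower and none higher on TPM, with a median of -0.47, and 5 were lower and 4 higher after quantile normalization and 6 lower and 4 higher after median centring. These included RAB23 (-0.80), a negative regulator of Hedgehog signalling, PKD1 (-0.77), the polycystin of the ciliary membrane, and PTCH1 (-0.71), the Hedgehog receptor, which was not called after quantile normalization (-0.43). Of 9 transcription factor genes searched for their link to cilia, RFX5 (-0.65), best known as a regulator of MHC class II genes, and RFX7 (-0.37) were listed and lower on TPM, RFX7 was not called on the other 2 scales (-0.11 on each), and the other 7 of the list, RFX3 and FOXJ1 among them, were not in the table.

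Genes of proliferation were lower as well. Of 13 tested, 12 were lower (11 on each of the other 2 scales) and CDKN1A, the inhibitor of cyclin-dependent kinases, was higher (log2 fold change 1.06), with a median of -2.72 over the list. CDK1 went from 14.6 ± 1.58 to 0.173 ± 0.0971 TPM (SD, n = 3, log2 fold change -3.73), CCNB2, a mitotic cyclin, from 28.98 ± 3.11 to 1.39 ± 0.224 TPM (SD, n = 3, -3.65) and TOP2A, the topoisomerase of dividing cells, from 22.9 ± 2.76 to 1.26 ± 0.234 TPM (SD, n = 3, -3.40). The part of a lower share of dividing cells in the falls of the members was not tested. Of the multiciliated cell markers, DNAH5 was not called on any scale (-0.15 on TPM, 0.22 after quantile normalization), TPPP3 was higher (1.01) and TUBB4B, a tubulin that other cells also use, was lower (-0.74).

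The members differed in genomic span, and span went with the fold change over the table as a whole. Across the 5700 genes tested that have a span in GENCODE release 29, Spearman's rho between span and log2 fold change was -0.441. The points share the 6 libraries and no p is given. Across the 49 members it was -0.031. It was -0.284 across the 43 members that did not fall by more than 1 on the log2 scale, a set chosen by the fold change itself. With the median transcript length in place of span, rho was -0.335 over the 5700 genes and -0.282 over the 49 members. The 6 members with the deepest falls had a median span of 29179 bp, against 68720 bp over all members tested. IFT20 spans 7165 bp and IFT27 18055 bp, while IFT43, which also rose, spans 182450 bp.

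**Figure D5:**
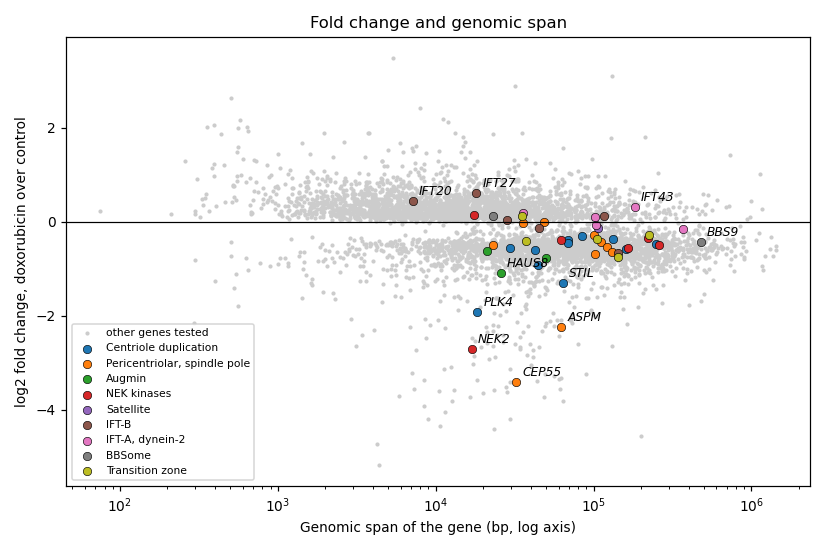
Log2 fold change of doxorubicin over control (y axis) against the genomic span of each gene in bp (x axis, log scale) for the members, coloured by role, over the other genes tested in grey. The table lists only genes marked as changed by its authors, yet 1645 of the 5721 genes tested were not called on TPM. The 6 deepest falls lie at spans between 16974 and 64009 bp, and members of long span such as BBS9 lie close to the grey cloud.

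The median coefficient of variation over the members tested was 11.0% in control cells and 13.4% after doxorubicin. Exons of 20 of the 54 members are shared with another annotated gene, such as NEK4 with SPCS1 (2698 bp, opposite strand), IFT20 with TMEM97 (361 bp, opposite strand) and IFT43 with TTLL5 (85 bp, same strand). Whether the counting used strand is not given in the sources used here, so reads of these genes cannot be told apart from those of their neighbours.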

How the data were processed

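RNA of WI-38 cells was sequenced in 9 libraries (3 groups of 3), and 6 of them, the control and doxorubicin libraries, have columns named by their sample titles and were analysed. The table deposited by the authors holds 1 value for each gene in each library and names no unit. These values were read as TPM made by the authors, which their range and sums do not contradict. The submitters' processing notes name CASAVA, HISAT2, StringTie, RSEM, DESeq2 and edgeR without roles, and the mouse build GRCm38, although the identifiers are human. The annotation is not given in the sources used here. The table also holds group means, which were only checked against the libraries, and fold changes, p-values, adjusted p-values and a direction from the authors' own comparison, which were not used. TPM keeps no depth, so depth per library is unknown and no counting interval is given.

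The members and lists were chosen with earlier results of these data known. On log2(TPM + 1) values, the 5721 of 6499 genes that averaged 1 TPM or more entered a limma model of the group means (version 3.58.1 in R 4.3.3, moderated by eBayes with the trend and robust options). A gene was called at a Benjamini-Hochberg adjusted p under 0.05 over all genes tested and a fold change over 1.2. The fit was tested on simulated data. The rule for named genes took, in each role list, the 3 deepest falls and 3 largest rises among called genes without overlap, every gene of lists with at most 6 tested, and genes called against the majority. Genes not called or too low are named too. Other members of the lists were named after their values were seen. From the lists of other genes, the 3 deepest falls and largest rises are named. Positions, spans and shared exons are those of GENCODE release 29 on GRCh38 by Ensembl identifier (54 of 54 members matched), and promoters are from RefSeq (50 of 54). BBS9, NEK7, PCM1 and TCTN2 had no promoter match. Alternatives were pseudocount 0.1, no filter or a mean of at least 5 TPM, quantile normalization, median centring, a block for the replicate number, other thresholds, plain eBayes and fits without each library. Python 3.11.15, pandas 2.3.3, NumPy 2.4.6 and SciPy 1.17.1 were used.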

Additional observations from a re-analysis of the deposited data

How the results depend on the processing

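Against 30 lower and 3 higher members with a median log2 fold change of -0.41 on TPM, quantile normalization gave 16 lower and 9 higher (median -0.0562) and median centring 17 lower and 9 higher (median -0.15). A mean of at least 5 TPM left 28 members tested, with 12 lower (42.9%, against 44.5% of all genes under this filter) and a median of -0.14, and a fold change over 2 left 6 lower and 0 higher. At an unadjusted p under 0.05, limma called 31 lower and 3 higher. Fits without 1 library gave 24 to 30 lower and 3 to 4 higher members and a median of -0.51 to -0.37. With no filter on low values 35 were lower, among them SASS6, CEP152, CEP97 and CEP128. The replicate numbers did not pair the libraries (correlations of the deviations of same-numbered libraries -0.06, -0.19 and -0.23), and with the replicate block 26 members were lower and 3 higher, at a median of -0.41.

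Signs turned for genes that were not called or lost their call. After quantile normalization these were NEK4 (0.00168), NEK1 (0.0152), IFT172 (0.17), DYNC2H1 (0.18), WDR19 (0.21), RPGRIP1L (0.00936), ALMS1 (0.0736), CEP192 (0.02), CEP70 (0.08) and CEP95 (0.34), and after median centring CEP95 (0.23), PCM1 (0.12), IFT172 (0.13), DYNC2H1 (0.11) and WDR19 (0.19). Over the fits without 1 library, the genes that crossed 0 ranged from -0.160 to 0.126 for CEP95, from -0.113 to 0.121 for CEP41, from -0.240 to 0.00602 for IFT172, from -0.155 to 0.00428 for WDR19, from -0.286 to 0.0108 for DYNC2H1, from -0.00382 to 0.0894 for IFT46 and from -0.000525 to 0.2145 for BBS1. The causes were not tested. TPM keeps no depth, so how far depth limits the low members is unknown.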
